A study of Arabidopsis thaliana with 18 samples.

Results

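COP1, the 4 SPA proteins, DET1 and the pair RUP1 and RUP2 hold back light responses in Arabidopsis, and the transcripts of these 8 genes were followed while dark-grown seedlings were exposed to white light (WL). The genes were chosen by name, as repressors of photomorphogenesis, by no rule on a measured value, but with earlier results of these data known. They are 8 of the 34212 genes in the deposited tables. RNA came from whole Col-0 (Columbia-0, wild type) seedlings grown at constant darkness for 5 days, as 18 libraries, 3 for each of 6 groups: a dark group and groups given 15, 30, 60, 150 or 360 min of WL. Replicates are pools of whole seedlings, described as biological replicates. The labels and the paper's methods give different WL intensities and different library preparations. The dark group was harvested once, so that minutes of light and elapsed time cannot be told apart. In RNA from whole seedlings, fewer cells that express a gene and less of its RNA per cell cannot be told apart either.

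COP1 is a RING-type E3 ubiquitin ligase that works in the nucleus with the SPA proteins as a substrate receptor on a CUL4-DDB1 ligase. In darkness this complex marks transcription factors that promote photomorphogenesis, such as HY5, for degradation by the proteasome, and light acts through phytochromes and cryptochromes to inactivate it, in part by binding SPA proteins. DET1 belongs to a second DDB1 assembly, with COP10 and DDA1, that also represses light development in the dark. RUP1 and RUP2 are WD40 proteins that return the UV-B photoreceptor UVR8 to its inactive dimer, and their genes are known targets of HY5. COP1 also has a positive part in UV-B signalling, through its binding to UVR8, which the RUP proteins oppose. The SPA proteins also carry WD40 repeats, and by sequence SPA1 and SPA2 form one pair and SPA3 and SPA4 the other. SPA1 and SPA2 are known from mutants to act in dark-grown seedlings, and SPA3 and SPA4 mainly in light-grown plants.

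A level is given as normalized counts, that is gene counts scaled to a common library size by edgeR's TMM factors. Libraries held 3577432 to 16156302 estimated counts, and the plastid 23S ribosomal RNA took 3.35% to 83.7% of them (median 49.1%), which left 2018291 to 10802867 counts for all other genes. In the dark it took 34.8%, 43.4% and 71.9%, and the 4 libraries over 75% were replicate 1 at 60 min, replicate 3 at 150 min and replicates 1 and 2 at 360 min. All 8 members passed the filter on low values (no group with 0 counts in 2 or more libraries). Their total over the 18 libraries was between 1829 counts for SPA4 and 10060 for RUP1. In the seedling tissue check, the root markers PYK10 and CASP1 and the epidermal marker ATML1 were present in every group, whereas the root hair markers COBL9 and EXPA7 averaged at most 1.88 and 6.45 normalized counts in any group. The seed storage gene CRA1 averaged 8.50 ± 2.95 normalized counts at 360 min and 893 ± 895 in the dark (SD, n = 3 each), a log2 fold change of −6.82 ± 2.57 that did not pass edgeR's test (adjusted p = 0.139, Benjamini-Hochberg) and whose part in the results was not tested. Of the list of 6 markers 4 were tested, and edgeR called 0 at any time over the dark. Before adjustment 1 was below 0.05, after 360 min, where 21.4% of all genes were. DESeq2 called 1 lower at 360 min, where it called 7.59% of all genes in either direction. Light-induced controls responded: LHCB1.1, RBCS1A, CHS and ELIP1, 4 of 4, were called higher at 150 and at 360 min.

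Over the time course 3 of the 8 members differed between the 6 groups, RUP1, RUP2 and SPA3, at an adjusted p-value below 0.01, where 5.02% of the 16747 genes tested did. By 360 min the RUP1 level was 6.72-fold, the RUP2 level 24.4-fold and the SPA3 level 8.40-fold that of the dark. COP1, SPA1, SPA4 and DET1 had higher means than the dark at 60, 150 and 360 min without passing the test. Light and dark libraries overlapped for SPA1 at 360 min, for SPA4 at 60 and 360 min, and for SPA2 and DET1 at every time.

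RUP1 (AT5G52250, chr5:21216772-21218351, plus strand) and RUP2 (AT5G23730, chr5:8005097-8006630, plus strand) are annotated with 1 exon each in TAIR10.1. COP1 (AT2G32950) lies at chr2:13977881-13983609 on the plus strand with 13 exons. SPA1 (AT2G46340) is at chr2:19022154-19027528 on the minus strand with 8 exons, and SPA2 (AT4G11110) at chr4:6771605-6777225 on the plus strand with 8. SPA3 (AT3G15354) is at chr3:5169095-5173105 on the minus strand with 6 or 7 exons, and SPA4 (AT1G53090) at chr1:19783185-19786902 on the plus strand with 5 to 8. DET1 (AT4G10180) is at chr4:6346411-6349314 on the plus strand with 10 exons. Reads can be told apart between the family members: of all 31-base words of the exons, 2 of 3364 in SPA3 and 2 of 2986 in SPA4 occur elsewhere in the genome, in each other, and 0 in the other 6 members. SPA3 overlaps AT3G15350 on the opposite strand by 135 bases. The counting is not stated to use the strand, so reads of those bases cannot be assigned with certainty, and AT3G15350 itself had log2 fold changes of 0.71, 0.43 and 0.62 at 60, 150 and 360 min (edgeR, Benjamini-Hochberg adjusted p = 0.822, 0.875 and 0.683).

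The 250 bases before the annotated start (TAIR10.1, the RefSeq annotation) are shown for the 3 members called over the time course, 5′ to 3′ on the strand of the gene, because HY5 and the PIF factors bind ACGT-containing boxes and related E-boxes in promoters. Capitals mark ACGT, the core of such boxes, and CACATG or CATGTG, the PBE-box that PIFs bind.
RUP1, chr5:21216522-21216771, plus strand: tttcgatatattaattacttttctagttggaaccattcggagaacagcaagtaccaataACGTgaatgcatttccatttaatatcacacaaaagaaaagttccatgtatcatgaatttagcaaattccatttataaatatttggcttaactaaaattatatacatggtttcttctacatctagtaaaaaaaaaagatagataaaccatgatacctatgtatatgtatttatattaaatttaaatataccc
RUP2, chr5:8004847-8005096, plus strand: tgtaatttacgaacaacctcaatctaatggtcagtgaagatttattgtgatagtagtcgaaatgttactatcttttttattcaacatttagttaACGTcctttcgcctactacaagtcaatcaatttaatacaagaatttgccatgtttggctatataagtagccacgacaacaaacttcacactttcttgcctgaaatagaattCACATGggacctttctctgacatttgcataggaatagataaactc
SPA3, chr3:5173106-5173355, minus strand: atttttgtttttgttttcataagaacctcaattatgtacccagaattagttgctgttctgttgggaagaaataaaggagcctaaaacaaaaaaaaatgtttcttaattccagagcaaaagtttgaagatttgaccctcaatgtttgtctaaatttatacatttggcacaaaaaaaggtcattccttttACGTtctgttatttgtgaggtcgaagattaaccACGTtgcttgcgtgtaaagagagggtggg
Counted from the annotated start, with −1 next to it, ACGT begins at −191 in RUP1, at −156 in RUP2, and at −62 and −29 in SPA3. RUP2 also holds a PBE-box at −45. Both strands were searched, ACGT reads the same on either, and the G-box CACGTG, which contains ACGT, was searched as well. Of the 8 members, 6 hold ACGT in this window, SPA2 with 2 matches, COP1 and SPA1 with 1 each, and SPA4 and DET1 with 0. Of 27443 protein-coding genes, 44.1% hold it. The PBE-box is in 1 of 8 members and in 11.1% of those genes, and the G-box is in 0 of 8 and in 6.49%. A match of letters is not a binding site.

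The members' calls began at 60 min. At 15 min 0 of the 8 members were called, where 0% of the 16747 genes were called higher, and at 30 min 0 of 8, where 0.0836% were. At 15 and 30 min, 1 and 2 members had an unadjusted p-value below 0.05, as had 0.884% and 2.49% of all genes, and DESeq2 called 0 members at both times as well. At 60 min 2 of 8 were called higher, RUP1 and SPA3, against 0.8% of all genes, at 150 min 3 of 8 against 2.2%, and at 360 min 3 of 8 against 3.47%. None was called lower, against 0.0478%, 0.561% and 0.812% of all genes at 60, 150 and 360 min. The 3 light libraries lay all above the 3 dark ones for 1 member at 15 and at 30 min (3.91% and 5.95% of all genes), 5 at 60 min (6.89%), 6 at 150 min (12.5%) and 4 at 360 min (10.5%). For 0 members did they lie all below, against 3.83%, 5.38%, 7.49%, 10.9% and 11.3% of all genes at the 5 times. The median log2 fold change of the members was 0.05, 0.47, 1.71, 1.93 and 1.85 at 15, 30, 60, 150 and 360 min, and that of all genes −0.01, −0.02, 0.02, −0.03 and −0.03. Each comparison used the same 3 dark libraries.

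RUP1 separated from the dark earliest and had the smallest standard errors of the 8 members. Its normalized counts were 203, 175 and 81.6 in the dark, 303, 344 and 217 after 15 min, 566, 456 and 376 after 30 min, 809, 826 and 429 after 60 min, 1028, 932 and 953 after 150 min and 844, 1006 and 1260.2 after 360 min of WL. All 3 libraries of each light group lay above all 3 dark libraries, from 15 min on. Dark replicate 3 and replicate 3 at 60 min were well below the other libraries of their groups, while the libraries at 150 min were close to each other. The mean was 1036 ± 209.9 at 360 min and 153 ± 63.6 in the dark (SD, n = 3 each), a 6.72-fold difference. The log2 fold changes over the dark at 15, 30, 60, 150 and 360 min were 0.90 ± 0.37, 1.59 ± 0.37, 2.15 ± 0.38, 2.65 ± 0.38 and 2.75 ± 0.39 (± SE). The Benjamini-Hochberg adjusted p-values (over all genes, edgeR quasi-likelihood test) were 0.9999, 0.119, 0.00191, 8.72e-05 and 4.45e-05 in that order, so that RUP1 was called from 60 min. In a fit that also held the share of plastid 23S RNA, the log2 level of RUP1 changed by −0.02 per 10 percentage points of it (adjusted p = 0.782).

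RUP2 was low until 30 min and became the most changed member. It had normalized counts of 27.8, 12.9 and 63.5 in the dark, 14.3, 31.2 and 33.2 after 15 min, 44.0, 90.9 and 37.5 after 30 min, 73.6, 272 and 80.1 after 60 min, 1062, 587 and 179.5 after 150 min and 452, 261 and 1712 after 360 min of WL. The 3 libraries at 60, at 150 and at 360 min were all above the dark ones, but the spread within the last 2 groups was wide. The mean was 808 ± 788 at 360 min, 609 ± 442 at 150 min and 34.8 ± 26.0 in the dark (SD, n = 3 each), with log2 fold changes of 2.09 ± 0.77, 4.20 ± 0.82 and 4.61 ± 0.83 at 60, 150 and 360 min. The adjusted p-values in the Benjamini-Hochberg adjusted edgeR test were 0.257, 0.00270 and 0.000922, so that RUP2 was called at 150 and 360 min. Within each of those groups the library with the least plastid 23S RNA had the highest RUP2: 1062, 587 and 179.5 normalized counts went with 41.0%, 67.8% and 82.8% at 150 min, and 452, 261 and 1712 with 83.7%, 78.4% and 24.1% at 360 min. With this share in the fit both RUP2 calls held, and its slope was −0.14 on the log2 scale per 10 percentage points (adjusted p = 0.375). The RUP2 call at 150 min was lost without dark replicate 1 (adjusted p = 0.0275), without dark replicate 2 (0.0216) or without replicate 1 at 150 min (0.0114, log2 fold change 3.53), and the call at 360 min without dark replicate 1 (0.0117). The log2 fold change of RUP2 was 4.92 and 5.34 at 150 and 360 min without dark replicate 3, and 3.41 at 360 min without replicate 3 of that group.

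**Figure D1:**
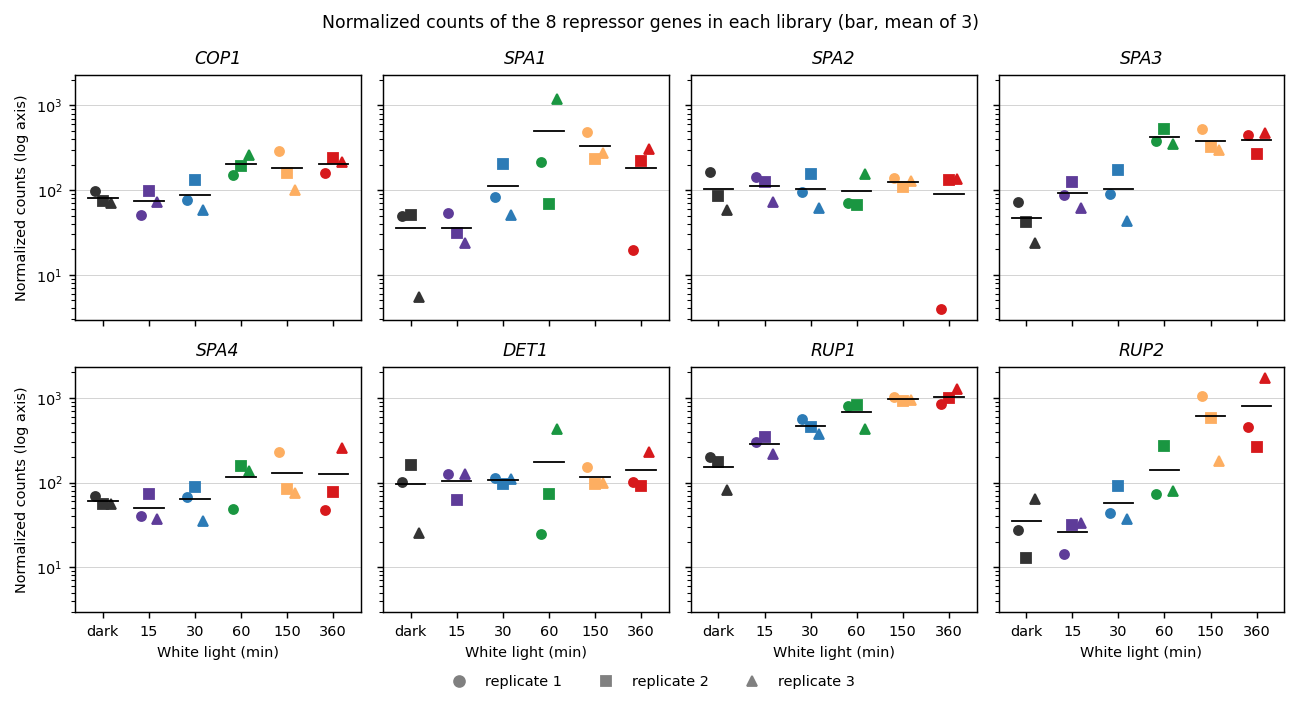
Normalized counts (log axis) of the 8 members in each of the 18 libraries, by minutes of WL, with the mean of 3 libraries as a bar. RUP1 lies above its dark libraries from 15 min on and averages 1036 at 360 min, against 153 in the dark, RUP2 and SPA3 stand above their dark libraries from 60 min, and SPA2 and DET1 overlap with the dark at every time.

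The ratio of the paralogs RUP1 and RUP2 was lower at 150 and 360 min than before, on average, with wide spread. Within a library the log2 ratio of RUP1 to RUP2, per length (TPM), was 2.8, 3.71 and 0.31 in the dark, 4.35, 3.41 and 2.66 after 15 min, 3.64, 2.28 and 3.28 after 30 min, 3.41, 1.56 and 2.39 after 60 min, −0.10, 0.62 and 2.36 after 150 min and 0.85, 1.90 and −0.49 after 360 min. RUP2 reached the level of RUP1 or passed it in replicate 1 at 150 min and replicate 3 at 360 min, and dark replicate 3, where the 2 genes were also close, stands apart from the other dark libraries. Over the 9 libraries of 60, 150 and 360 min, a split chosen with earlier results of these data known and pooling 3 time points on either side, the log2 ratio averaged 1.39 ± 1.27, against 2.94 ± 1.16 in the 9 of the dark, 15 and 30 min (SD; two-sided exact permutation test over libraries, p = 0.0180, 0.0270 adjusted by Benjamini-Hochberg over the 9 ratios and shares compared). Because of that choice, neither this p-value nor those of the other ratios and shares below are independent of those results. Without replicate 1 at 150 min the adjusted p was 0.0511 and the difference −1.36. The mean log2 ratio was 2.28 in the dark, 3.47, 3.07 and 2.45 at 15, 30 and 60 min, and 0.96 and 0.76 at 150 and 360 min, so that 60 min was not below the dark. Set against the 3 dark libraries alone, the exact permutation test gave p = 0.5, 0.7, 1, 0.3 and 0.3 at the 5 times, where 3 against 3 cannot go below 0.1.

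COP1, the ligase itself, had normalized counts of 97.4, 73.4 and 70.8 in the dark, 50.3, 98.9 and 72.3 after 15 min, 75.4, 132 and 58.0 after 30 min, 151, 191 and 260.4 after 60 min, 289, 161 and 101 after 150 min and 158, 239.9 and 215 after 360 min of WL. Each of the 9 libraries from 60 min on was above all 3 dark libraries. The means were 201 ± 55.5, 184 ± 96.1 and 204 ± 41.7 at 60, 150 and 360 min, and 80.5 ± 14.7 in the dark (SD, n = 3 each), with log2 fold changes of 1.32 ± 0.47, 1.20 ± 0.47 and 1.34 ± 0.48. None of these passed the threshold of 0.01: the adjusted p-values were 0.233, 0.198 and 0.0897 in the Benjamini-Hochberg adjusted edgeR test, and 0.0645 over the time course. The time course call of COP1 depended on the tool, with an adjusted p of 0.00322 by DESeq2 and 0.000163 in the first step of a regression on time.

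SPA3 was the SPA gene that passed the test. It had normalized counts of 73.3, 42.1 and 23.6 in the dark, 87.6, 125 and 61.6 after 15 min, 90.3, 173 and 42.8 after 30 min, 382, 526 and 349 after 60 min, 525, 326 and 300.3 after 150 min and 448, 268 and 472 after 360 min of WL. The 9 libraries from 60 min on stood between 268 and 526, above all 9 of the dark, 15 and 30 min, which stood between 23.6 and 173. Its means at 60, 150 and 360 min, 419 ± 94.1, 384 ± 123 and 396 ± 111, were within their spread of each other, against 46.3 ± 25.1 in the dark (SD, n = 3 each). The log2 fold changes were 3.15 ± 0.52, 3.03 ± 0.52 and 3.07 ± 0.52, with adjusted p = 0.00112, 0.000564 and 0.000378 (Benjamini-Hochberg, edgeR). At 15 and 30 min the log2 fold changes of SPA3 were 0.96 ± 0.49 and 1.12 ± 0.49, which did not pass. The step from 30 to 60 min was 2.03 ± 0.50, adjusted p = 0.0885 by the same edgeR test and 0.00564 by DESeq2.

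SPA1, the SPA protein named for its interplay with phytochrome A, had the largest standard errors. It had normalized counts of 49.8, 51.0 and 5.44 in the dark, 53.4, 31.2 and 23.7 after 15 min, 82.5, 203 and 50.8 after 30 min, 214, 69.0 and 1201 after 60 min, 479.7, 236 and 277 after 150 min and 19.8, 222 and 309 after 360 min of WL. Replicate 3 at 60 min and replicate 3 of the dark, which rests on 3 counts, are the extremes, and replicate 1 at 360 min rests on 5 counts. At 60, 150 and 360 min its log2 fold changes were 3.76 ± 1.02, 3.18 ± 0.99 and 2.35 ± 0.97, with adjusted p = 0.0860, 0.0861 and 0.163 (Benjamini-Hochberg, edgeR). Over the time course it was 0.0503, and 0.00817 without replicate 2 at 60 min. Without replicate 3 at 60 min the log2 fold change there was 1.93. SPA1 also moved most with the plastid RNA: its log2 level changed by −0.36 for each 10 percentage points of 23S RNA (adjusted p = 0.00149, Benjamini-Hochberg, edgeR). Replicate 3 at 60 min, its highest library, held the least of this RNA (3.35%) and the smallest total count, and the slope was not refitted without it. With the share of 23S RNA in the fit, an alternative added after the data were seen, SPA1 was called at 60, 150 and 360 min (log2 fold changes 3.31, 3.84 and 2.79; adjusted p = 0.00237, 0.000281 and 0.00451). DESeq2 called it at 60 and 150 min.

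SPA2 was not called at any time. It had normalized counts of 165, 85.0 and 58.1 in the dark, 142, 124 and 72.3 after 15 min, 95.0, 154 and 60.7 after 30 min, 70.1, 67.0 and 153 after 60 min, 138, 110.2 and 127 after 150 min and 3.96, 131 and 136 after 360 min of WL. At every time the light and the dark libraries overlapped, and the value of replicate 1 at 360 min rests on 1 count. The log2 fold changes lay between −0.16 and 0.28, with standard errors of 0.67 to 0.68. A change of several standard errors could also go uncalled, as did that of RUP1 at 30 min (1.59 ± 0.37). SPA4 had normalized counts of 70.3, 55.7 and 56.2 in the dark, 39.8, 73.0 and 36.7 after 15 min, 67.6, 88.6 and 34.8 after 30 min, 49.1, 158 and 139 after 60 min, 230.3, 83.5 and 75.1 after 150 min and 47.5, 77.6 and 257 after 360 min of WL. Its log2 fold changes from 60 min on were 0.93 ± 0.64, 1.11 ± 0.64 and 1.1 ± 0.64 (adjusted p = 0.674, 0.470 and 0.337, Benjamini-Hochberg, edgeR). The 3 libraries at 150 min lay above the dark ones, while at 60 and 360 min replicate 1 lay below them.

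**Figure D2:**
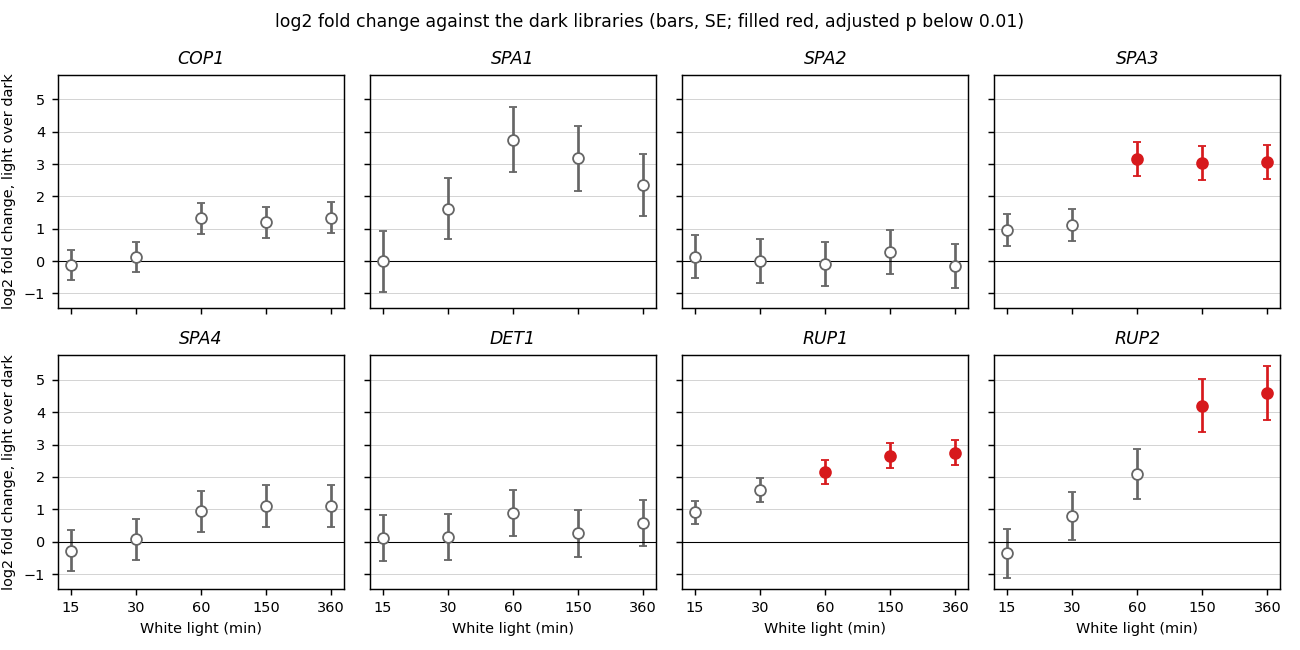
log2 fold change of each member over the dark at 15, 30, 60, 150 and 360 min of WL, with the standard error as a bar and filled red points where the adjusted p was below 0.01. The called points are RUP1 and SPA3 from 60 min and RUP2 from 150 min, up to 4.61 for RUP2 at 360 min, while SPA2 stays between −0.16 and 0.28.

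The make-up of the SPA transcripts differed between later and earlier libraries. As a share of the summed SPA TPM within a library, SPA2 held 39.1, 29.8 and 33.5% in the dark, 37.6, 29.3 and 31.3% after 15 min, 23, 20.1 and 26.3% after 30 min, 7.85, 6.51 and 6.38% after 60 min, 7.86, 11.7 and 13.1% after 150 min and 0.615, 15.0 and 9.05% after 360 min. The 9 later and the 9 earlier libraries did not overlap. The mean share of SPA2 was 8.67% ± 4.26 in the later and 30.0% ± 6.28 in the earlier libraries (SD, n = 9 each; exact permutation test, two-sided, p = 4.11e-05, which is the lower limit for 9 against 9, adjusted p = 0.000370). Against the 3 dark libraries alone, the share of SPA2 was lower by 1.37, 10.98, 27.2, 23.2 and 25.9 percentage points at 15, 30, 60, 150 and 360 min (exact permutation test, p = 0.7 at 15 min and 0.1, the smallest possible for 3 against 3, at the other times). SPA3 took 45.4% ± 19.1 in the later and 25.4% ± 6.52 in the earlier libraries (exact permutation test, adjusted p = 0.00713), and SPA4 14.2% ± 6.02 in the later and 24.6% ± 8.98 in the earlier ones (exact permutation test, adjusted p = 0.0105). Later and earlier libraries overlapped for SPA3 (17.7 to 84.7% and 16.0 to 36.1%) and for SPA4 (7.80 to 24.5% and 15.1 to 46.0%). The SPA3 share of 84.7% was in replicate 1 at 360 min, where SPA1 rests on 5 counts and SPA2 on 1. The share of SPA1 was 31.7% ± 18.2 in the later and 20.1% ± 10.08 in the earlier libraries and did not pass (exact permutation test, p = 0.110, also after adjustment). Without replicate 1 at 360 min the SPA1 difference was 15.1 percentage points, adjusted p = 0.0334.

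Within both SPA pairs the ratio shifted towards one gene. The log2 ratio of SPA1 to SPA2 was 1.88 ± 0.86 in the 9 later and −0.77 ± 1.14 in the 9 earlier libraries (SD; exact permutation test, adjusted p = 0.000370). SPA2 outnumbered SPA1 per length in all 6 dark and 15 min libraries, and SPA1 outnumbered SPA2 in all 12 from 30 min on. The order rests on 5 counts of SPA1 and 1 of SPA2 in replicate 1 at 360 min, and on 3 counts of SPA1 in dark replicate 3. Values per length also depend on which SPA1 transcripts, of 2471 to 4215 bases, the reads were assigned to. SPA3 to SPA4 was 1.67 ± 0.78 in the later and 0.07 ± 0.76 in the earlier libraries (exact permutation test, adjusted p = 0.000494). The 3 dark libraries were the ones with less SPA3 than SPA4. COP1 to DET1 was 0.40 ± 0.97 in the later and −0.63 ± 0.95 in the earlier libraries (exact permutation test, adjusted p = 0.0485). This difference was no longer past 0.05 when any of 11 of the 18 libraries was left out. With normalized counts in place of TPM the adjusted p in that test was 0.0516. For this ratio the measures differ only by a constant length factor and rounding of counts, so this is no separate check. COP1 to the summed SPA transcripts was −1.79 ± 0.47 in the later and −1.32 ± 0.48 in the earlier libraries (exact permutation test, adjusted p = 0.0574), and passed 0.05 when replicate 1 at 15 min, replicate 2 at 30 min or replicate 1 or 2 at 360 min was left out (adjusted p = 0.0259, 0.0450, 0.0334 and 0.0279).

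**Figure D3:**
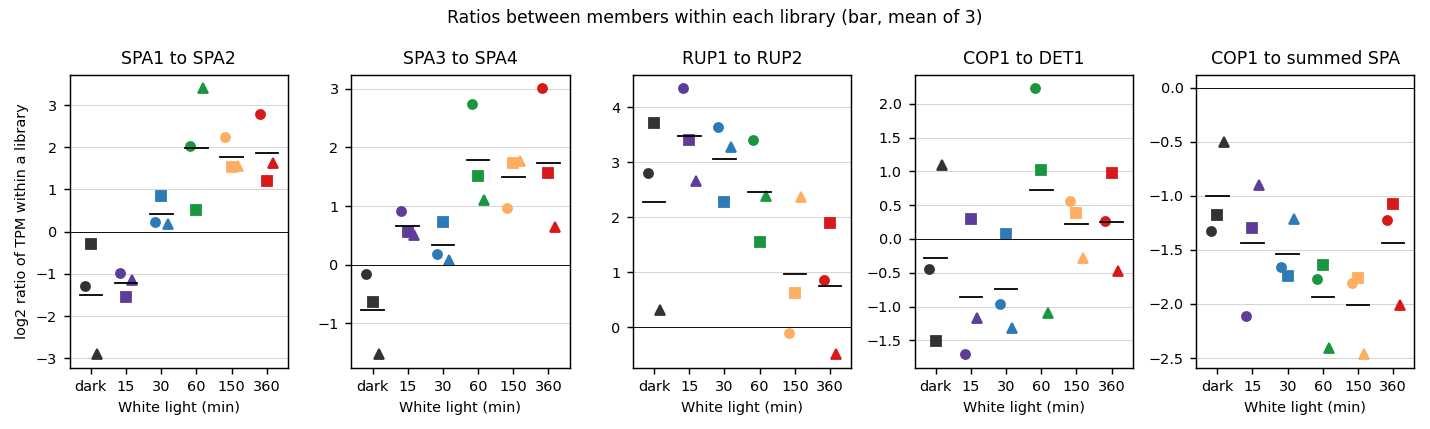
log2 ratios of TPM between members within each library, by minutes of WL, with the mean of 3 libraries as a bar. SPA1 to SPA2 is below 0 in all 6 libraries of the dark and 15 min and above 0 in the other 12, and RUP1 to RUP2 averages 0.76 at 360 min, against 2.28 in the dark.

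DET1, a chromatin-linked repressor, had normalized counts of 102, 161 and 25.4 in the dark, 127, 62.4 and 126 after 15 min, 114, 96.7 and 112 after 30 min, 24.5, 72.9 and 431 after 60 min, 152, 95.6 and 97.9 after 150 min and 103, 91.7 and 232 after 360 min of WL. The light and the dark libraries overlapped at every time, and replicates 1 and 3 at 60 min were the lowest and the highest of the 18. The log2 fold change was 0.88 ± 0.72 at 60 min and 0.57 ± 0.72 at 360 min (adjusted p = 0.749 and 0.691, Benjamini-Hochberg, edgeR), and −0.96 at 60 min without replicate 3 of that group. The share of plastid 23S RNA was 82.3% in replicate 1 and 3.35% in replicate 3 at 60 min. DET1 moved with the plastid RNA too, by −0.29 on the log2 scale per 10 percentage points of 23S RNA (adjusted p = 0.00590, the same edgeR test). The slope was not refitted without replicate 3 at 60 min, the highest DET1 library. How many of all genes had such a slope was not counted, so it is not shown to be particular to any member. For the other members this slope was −0.23 for SPA4, −0.20 for SPA2, −0.14 for RUP2, −0.12 for COP1 and −0.11 for SPA3, with adjusted p of 0.0171 or more.

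**Figure D4:**
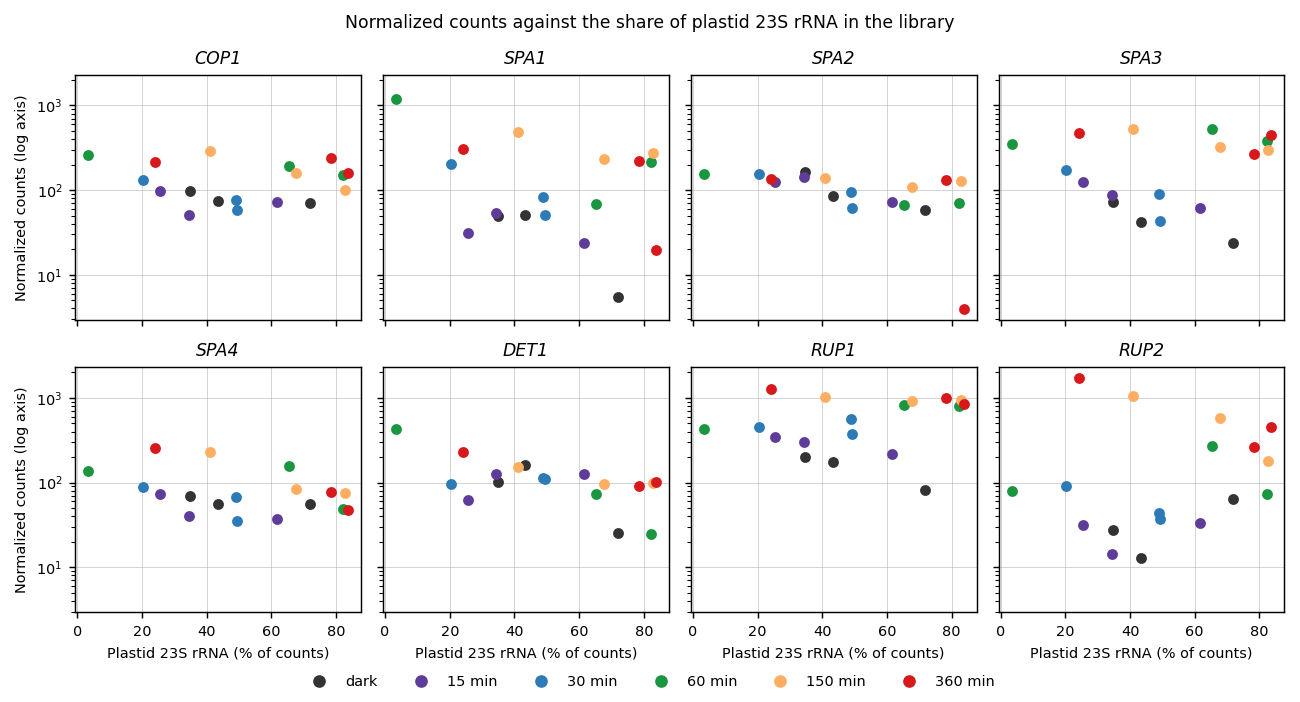
Normalized counts of each member (log axis) against the share of counts taken by plastid 23S ribosomal RNA, 1 point per library, coloured by minutes of WL. SPA1 and DET1 are highest, at 1201 and 431, in the library with 3.35% of this RNA, while RUP1 and SPA3 separate the later libraries from the dark ones at any share.

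Leaving out either of 2 dark libraries ended both calls at 60 min. Without dark replicate 2 or dark replicate 3 neither SPA3 (adjusted p = 0.0135 and 0.0123) nor RUP1 (0.0111 and 0.0170) was past 0.01, and RUP1 was not without replicate 2 at 60 min (0.0102) or without the 4 libraries over 75% plastid 23S RNA (0.0102). Scaled by library totals that include this RNA, 0 members were called at any time, where 1 gene in all was called at 60 min and 0 at 150 and 360 min. Between neighbouring light times (30 over 15, 60 over 30, 150 over 60 and 360 over 150 min) 0 members were called by edgeR's quasi-likelihood test and 1 by DESeq2, where edgeR called 0.0657% of all genes higher from 30 to 60 min, and 0.119% higher and 0.0299% lower from 60 to 150 min. The DESeq2 call was SPA3 from 30 to 60 min, a step in which DESeq2 called 0.723% of all genes in either direction. At an unadjusted p-value below 0.05, 3 members were higher in the step from 30 to 60 min, COP1, SPA1 and SPA3, and RUP2 in the step from 60 to 150 min (log2 fold change 2.10), where 7.66% and 8.61% of all genes had such a p-value in either direction.

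Per kb of effective length, the order of the levels in the dark was RUP1 (110.2 ± 45.7 normalized counts per kb), DET1 (54.8 ± 38.8), COP1 (35.5 ± 6.48), SPA2 (26.1 ± 14.1), RUP2 (25.8 ± 19.3), SPA4 (22.0 ± 3.0), SPA3 (14.3 ± 7.77) and SPA1 (12.2 ± 8.96; SD, n = 3), and every pair of neighbours overlapped between libraries. At 360 min RUP1 (745 ± 151 per kb) and RUP2 (601 ± 586) led. SPA3 (123 ± 34.5), COP1 (90.1 ± 18.4), DET1 (81.1 ± 44.4), SPA1 (63.4 ± 51.2), SPA4 (46.2 ± 41.1) and SPA2 (22.9 ± 19.0) followed. RUP2 and SPA3 were then the neighbours in this order without overlap between libraries. These levels assume reads spread over the whole transcript.

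Shares of single transcripts could not be resolved. The annotation used for counting lists 10 transcripts for COP1, 12 for DET1, 7 for SPA1, 4 each for SPA3 and SPA4, 3 for SPA2 and 1 each for RUP1 and RUP2. Of 30 member transcripts tested for a changed share between the later and earlier libraries, 0 were called by limma's diffSplice (smallest adjusted p = 0.265, 1 transcript at an unadjusted p below 0.05), where 1.4% of 38244 transcripts were. The transcript with the largest share differed between libraries, with 5 different ones for SPA1 and DET1 and 4 for COP1 and SPA3, so that the single transcripts of these genes are not described further.

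Around the members, most subunits of the ligases were not called. Of the list of 8 CUL4-DDB1 and CDD genes, 7 were tested and 1, DDB2, a DNA damage recognition factor that binds DDB1, was called: it had 329 ± 170.0, 709.6 ± 106 and 581 ± 217 normalized counts at 60, 150 and 360 min and 44.3 ± 13.9 in the dark (SD, n = 3 each; log2 fold changes 2.86, 3.98 and 3.69). CUL4, DDB1A, DDB1B, COP10, DDA1 and RBX1A were not called, with log2 fold changes at 360 min between −0.48 for DDB1A and 0.88 for RBX1A. Of 10 subunit genes of the COP9 signalosome, the complex that removes NEDD8 from cullins, 9 were tested and 0 called by edgeR over the time course or at any time over the dark. At an unadjusted p-value below 0.05 there were 3, 2 and 2 at 60, 150 and 360 min, against 11.2%, 14.8% and 21.4% of all genes. DESeq2 called 1 at 360 min, against 7.59% of all genes. At 60 min the log2 fold changes reached from −1.20 ± 0.49 for CSN4 to 1.11 ± 0.38 for CSN2 (adjusted p = 0.336 and 0.204, Benjamini-Hochberg, edgeR). The highest at 360 min was CSN7, with log2 fold changes of 1.06 ± 0.44 at 60 min and 1.76 ± 0.45 at 360 min (adjusted p = 0.0146 at 360 min, same test).

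Genes of the transcription factors and clock proteins that COP1 targets include several that were called. Of 14 in the list 10 were tested, and 4 were higher at 60 min, HY5, HYH, BBX24 and BBX25. At 150 and at 360 min 5 were higher, these 4 and BBX22, and 1, BBX21, was lower. HY5, the bZIP factor at the centre of photomorphogenesis, had 3158 ± 2435 normalized counts at 360 min and 243 ± 112 in the dark (log2 fold change 3.71 ± 0.60), and its homolog HYH had 1568 ± 764 at 360 min and 12.7 ± 5.06 in the dark (log2 fold change 7.0 ± 0.64; SD, n = 3 each). BBX21 had 1057 ± 221 at 360 min and 2827 ± 750.4 in the dark (log2 fold change −1.42 ± 0.32). The median log2 fold change of the tested genes of this list was 1.53, 1.89 and 1.56 at 60, 150 and 360 min.

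Of 5 photoreceptor genes 1 was called: PHYA, the phytochrome of dark-grown seedlings, was lower at 150 and 360 min, with 551 ± 281 and 516 ± 272 normalized counts, against 2273 ± 1033 in the dark (log2 fold changes −2.04 and −2.13). UVR8, the receptor that RUP1 and RUP2 act on, had 817 ± 311 at 360 min and 1401 ± 170.1 in the dark and was not called (log2 fold change −0.77 ± 0.32, adjusted p = 0.162, Benjamini-Hochberg, edgeR). The cryptochrome inhibitors BIC1 and BIC2, negative regulators of another photoreceptor family, did not pass that filter and have no test. BIC1 had 39.6, 45.9 and 59.5 normalized counts at 360 min and 1.47, 0 and 0 in the dark, and BIC2 had 111, 60.0 and 30.3 at 360 min and was at 0 in all 3 dark libraries.

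Across the 18 libraries SPA3 was most like RUP1 and COP1. On log2 normalized counts Pearson's r was 0.89 between SPA3 and RUP1, 0.85 between COP1 and SPA3, 0.79 between COP1 and RUP2, 0.78 between COP1 and SPA4 and 0.77 between RUP1 and RUP2. SPA2 gave −0.04 with RUP1 and −0.06 with SPA3, and DET1 0.20 and 0.21. These values describe libraries that share their time group and depth. Among 16378 other genes, each averaging 10 or more normalized counts, the closest patterns were CRY3, a cryptochrome of the DASH kind (r = 0.94), and AT3G02910 (0.93) for RUP1, COL2, a CONSTANS-like factor (0.93), and RPT2, a phototropin signalling protein (0.91), for SPA3, AT3G59040 (0.95) and ERD9 (0.94) for RUP2, and ABCF5 (0.90) and AT5G37360 (0.89) for COP1. For SPA1 they were AT4G25830 (0.93) and HSP17.6A (0.90), for SPA2 AT5G59830 and 5-FCL (0.95 each), for SPA4 ANTR2 (0.90) and CH1 (0.87), and for DET1 AT3G15480 (0.88) and PGI1 (0.86).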

How the data were processed

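RNA-seq had been run on 18 libraries of whole seedlings, 3 for each of the 6 groups set by GEO's labels. The authors filtered the single reads for quality and used kallisto with AtRTD2-QUASI as transcriptome, and the deposited values for each of 82190 transcripts are an estimated count, an effective length and a TPM (abundance per length, plastid ribosomal RNA included in the total). They also deposited a table of normalized gene-level signal, in which reads are divided by 1 size factor per library. From it whole reads were recovered (100% of values whole within 0.01 read). 0 sample columns were left unassigned. The submitters' notes name DESeq 1.36.0 and edgeR 3.26.8.

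Estimated counts were summarised per gene as length-scaled TPM and rounded. The filter on zeros took out any gene at 0 in at least 2 libraries of a group (17465 of 34212) and left 16747. edgeR 4.0.16 in R 4.3.3 fitted all 18 libraries with 1 mean per group, TMM factors and quasi-likelihood tests, with Benjamini-Hochberg adjustment over all genes tested and a threshold of 0.01. The biological coefficient of variation was 0.540. TPM served for ratios within a library, compared by two-sided exact permutation tests at 0.05. Transcript shares were tested with limma 3.58.1 (diffSplice). Alternatives were other counts, scalings, filters and tools (DESeq2 1.42.0, limma-voom), a regression on time, 2 groups in the fit, a replicate block, each library left out, and, chosen after seeing the data, recovered reads, the share of 23S RNA as a covariate and the libraries over 75% of it left out. The tests were tested on simulated data.

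The members and lists were chosen with earlier results of these data known. The text names all 8 members, the listed genes that were called or were the highest or lowest of their list, the light-induced controls, and the 2 closest patterns per member. UVR8, BIC1, BIC2 and the other ligase subunits were named for their role, after their values were seen. Deviations of same-numbered libraries of 15 and 30 min correlated at r = 0.17, 0.42 and 0.27 for replicates 1, 2 and 3. Those of the dark and 150 min gave 0.39, 0.05 and 0.22. These values alone do not show that the numbers pair any groups, and the labels name nothing shared. The edgeR p-values set a difference against the spread between the 3 libraries of a group, estimated in 1 fit over all groups together. The exact permutation p-values for later against earlier libraries pool 3 time points on either side. They therefore mix differences between times with the spread between replicates. A member's value that rests on a few counts has that counting error only as its precision.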

Additional observations from a re-analysis of the deposited data

How the results depend on the processing

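The 3 members called over the time course, RUP1, RUP2 and SPA3, kept that call in every alternative except scaling by library totals that include plastid ribosomal RNA, where 0 members were called at 60, 150 and 360 min and over the time course. Under those totals the median log2 fold change of all genes was −0.65 at 360 min and −0.52 at 150 min, and relative to it SPA3, RUP1 and RUP2 stood at 3.09, 2.79 and 5.58 at 360 min. Over the time course 5 members were called, COP1 and SPA1 added, by DESeq2, in the first step of the regression on time and with the 23S RNA share in the fit. These 3 settings also called more of all genes over the time course, 1699, 2615 and 1236 in that order, against 840 in the main fit. In the step from 30 to 60 min 1 member was called by DESeq2 and with the 23S RNA share in the fit. At 60 min 0 were called with 2 groups in the fit, 1 without the 4 libraries over 75% 23S RNA, and 0 to 2 when each replicate was left out. Without any filter on zeros RUP2 at 150 min missed the threshold (adjusted p = 0.0180). The later minus earlier difference of log2 COP1 to DET1 was 1.02 (exact permutation test, adjusted p = 0.0516) with normalized counts. For this ratio those differ from TPM only by a constant factor and rounding. The difference was 0.81 (0.132) for 150 and 360 min against dark and 15 min, and 0.80 to 1.24 with each library left out. The same range was −1.88 to −1.31 for log2 RUP1 to RUP2, −0.57 to −0.37 for log2 COP1 to the summed SPA and 7.16 to 15.1 percentage points for the SPA1 share. Of the values for single genes 2490 stayed on their side of the threshold, 14 gained a call and 24 lost it. No called value changed sign, but values that were not called did, such as DET1 at 60 min (−0.96 to 1.46 with each library left out). The causes were not tested.

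Over all genes, 840 were called over the time course, 1699 by DESeq2, 2615 in the regression step, 1320 at a threshold of 0.05 and 20 with library totals. At 60 min 142 were called, 320 by DESeq2, 281 with the 23S RNA share in the fit, 265 at 0.05, 20 with 2 groups in the fit and 1 with library totals. At 360 min 717 were called, 1271 by DESeq2, 1168 with the share, 1291 at 0.05, 301 with 2 groups and 0 with library totals. Of these 81.03% were higher, 71.4% with the share and 91.1% without the 4 libraries. Without replicate 3 at 360 min 1132 were called there, 60.7% of them higher. Same-numbered deviations correlated over 0.1 in 11 of 45 pairs (−0.39 to 0.42), among them all 3 pairs of 15 and 30 min, which alone does not show a pairing. With the replicate block 0 members were called from 15 to 30 min, as without it, 2, 3 and 3 members were called at 60, 150 and 360 min and 3 over the time course, where 679 genes were. Members resting on 1 to 5 counts in a library (SPA1, SPA2) are limited by depth.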
